A study of Mus musculus with 24 samples.

Results

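The angiopoietins and the Tie receptors were followed here in single-nucleus RNA sequencing of mouse brain, in 4 genes of the 32288 listed: the secreted ligands Angpt1 and Angpt2, and the receptor genes Tek, which encodes Tie2, and Tie1. They were chosen by name as 1 signalling family. Levels of these genes by cell class, region and genotype in the same libraries were among the values known when they were chosen, so levels by class are given as a description, and no p-value below is independent evidence about them. The libraries came from 6 Pdgfb ret/ret mice (mutant) and 6 Pdgfb ret/wt mice (control), each giving a deep brain and a cortex library, which makes 24 libraries in 4 groups of 6. Both genotypes carry the ret allele, which removes the retention motif by which PDGF-B is held near the vessel wall, in a strain labelled B6.Pdgfbtm3Cbet. The control therefore has 1 mutant allele and is not a wild type. All 6 mutants were female, and the controls were 5 females and 1 male, control mouse 6. Ages ran from 4 months 7 days to 5 months 18 days in both genotypes. The mice were given no test agent, and were anaesthetised with xylazine and ketamine and perfused with heparin in buffered saline before dissection. Deep brain tissue held the pallidum, thalamus, hypothalamus, midbrain and pons, and cortical tissue the cerebral cortex with the hippocampus. The ret allele leaves the gene transcribed, so counts of Pdgfb do not check the genotype labels.

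With the study's stated limits (over 500 and under 7000 genes, under 20% mitochondrial molecules) 124958 deep brain and 79967 cortex nuclei remained. The deep brain set is larger than the one the paper reports. Deep brain libraries held 62996158 to 91910439 unique molecules (UMIs) and cortex libraries 16227618 to 94276997. In 7 of 12 cortex libraries the median nucleus had under 1500 UMIs, and 52.9% of cortex nuclei lay in clusters left unnamed, against 7.7% in the deep brain. Levels in the cortex therefore rest on fewer nuclei. The classes used below were 662 endothelial, 205 mural, 10221 astrocyte and 64604 neuronal nuclei of the deep brain, and 149, 31, 1630 and 25902 in the cortex. Endothelial nuclei carried the endothelial markers Cldn5 (1268 CPM in the deep brain, 1701 in the cortex, where CPM is a counts-per-million value) and Pecam1 (805 and 732), and mural nuclei carried Pdgfrb (2014 and 2534) and Vtn. Any pair of libraries shared 8 to 220 cell barcodes (median 98 over 276 pairs). Neurons of mutants 1 and 6 were 32.2% and 32.3% cerebellar granule-like nuclei (leading genes Gabra6 and Fat2), against 13.2% in control 3, 6.04% in mutant 5 and under 1% in the other 8 deep brain libraries.

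The 2 receptors are tyrosine kinases of endothelial cells. Angiopoietin 1, secreted by cells around the vessel, activates Tie2 and helps keep the endothelium quiet and closely joined, while angiopoietin 2, made and stored largely by endothelial cells themselves, can block or weakly activate the same receptor and is known from sprouting, remodelling and inflamed vessels. Tie1 binds no angiopoietin by itself and modulates Tie2 in a shared complex. In the brain the family is studied for its part in barrier vessels and in the contact of endothelium with pericytes.

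Angpt1 (ENSMUSG00000022309) lies at chr15:42424723-42676977 on the minus strand of GRCm38, and Angpt2 (ENSMUSG00000031465) at chr8:18690263-18741562 on the minus strand, within the bounds of Mcph1, which is read from the other strand. Tek (ENSMUSG00000006386) lies at chr4:94739289-94874976 on the plus strand and Tie1 (ENSMUSG00000033191) at chr4:118471191-118490061 on the minus strand. The promoters of Tek and Tie1, both highest in endothelial nuclei, are shown. Each runs from 250 bases before to 50 bases after the start site that RefSeq gives on GRCm38.p6, 5′ to 3′ on the gene's strand. For Tie1 that start lies inside the gene bounds given above, so most of its window falls within them. The capitals mark GGAA and its reverse complement TTCC, the core bound by ETS factors, a family with well-known roles in endothelial genes. RefSeq sequences matched for these 2 of the 4 genes.
Tek, chr4:94739039-94739338: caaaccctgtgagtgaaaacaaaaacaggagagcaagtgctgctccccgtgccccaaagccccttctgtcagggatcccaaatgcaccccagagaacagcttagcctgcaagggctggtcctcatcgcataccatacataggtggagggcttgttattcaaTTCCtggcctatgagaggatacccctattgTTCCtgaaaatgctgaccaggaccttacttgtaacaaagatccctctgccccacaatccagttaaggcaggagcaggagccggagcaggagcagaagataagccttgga
Tie1, chr4:118489800-118490099: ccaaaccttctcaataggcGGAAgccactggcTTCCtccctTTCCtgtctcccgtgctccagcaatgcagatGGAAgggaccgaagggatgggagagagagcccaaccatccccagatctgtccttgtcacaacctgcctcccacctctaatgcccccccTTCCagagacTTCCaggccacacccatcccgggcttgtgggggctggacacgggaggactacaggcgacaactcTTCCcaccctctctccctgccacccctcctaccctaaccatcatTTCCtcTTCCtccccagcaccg
The Tek promoter held 2 such matches and the Tie1 promoter 9. Of 32851 mouse promoters of this length, 96.0% held at least 1 match, 84.6% held at least 2 and 1.6% held at least 9, with a median of 3. The matches are letters in a window and were not tested for binding.

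Tek and Tie1 had by far their highest levels in endothelial nuclei. Levels are counts-per-million values (CPM), the UMIs of a gene relative to all UMIs of the class in a library, and each library with at least 5 nuclei of the class counts as 1 value. Deep brain endothelial nuclei had 662 ± 109 CPM of Tek (SD, n = 12 libraries), with a range of 502 to 818. In the cortex the level was 592 ± 266 CPM (n = 10), so the regions overlapped. The next class was mural, at 15.8 ± 28.8 CPM in the deep brain (n = 11), with a median of 0. Below it came fibroblasts at 3.44 ± 4.66 CPM, neurons at 3.31 ± 0.409 CPM, astrocytes at 1.83 ± 0.666 CPM and microglia at 0.882 ± 1.77 CPM (n = 12 each). Mural and fibroblast levels overlapped within 1 SD, as did those of fibroblasts and neurons and those of astrocytes and microglia, while neurons lay above astrocytes by more than 1 SD. Tie1 was at 240 ± 61.4 CPM in endothelial nuclei of the deep brain (n = 12) and at 222 ± 107 CPM in the cortex (n = 10). Mural nuclei had 22.2 ± 44.0 CPM of Tie1 in the deep brain, and astrocytes and neurons 0.152 ± 0.253 and 0.0395 ± 0.0294 CPM. A Tek UMI was seen in 63.9% of deep brain endothelial nuclei (95% exact interval 60.1 to 67.6, median depth 1916 UMIs) against 0.145% of microglial nuclei (median depth 2274), a class that should lack the gene. A Tie1 UMI was seen in 37.5% (33.8 to 41.3) of the endothelial and 0.145% of the microglial nuclei. Intervals on shares and pooled levels cover counting error only.

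**Figure D1:**
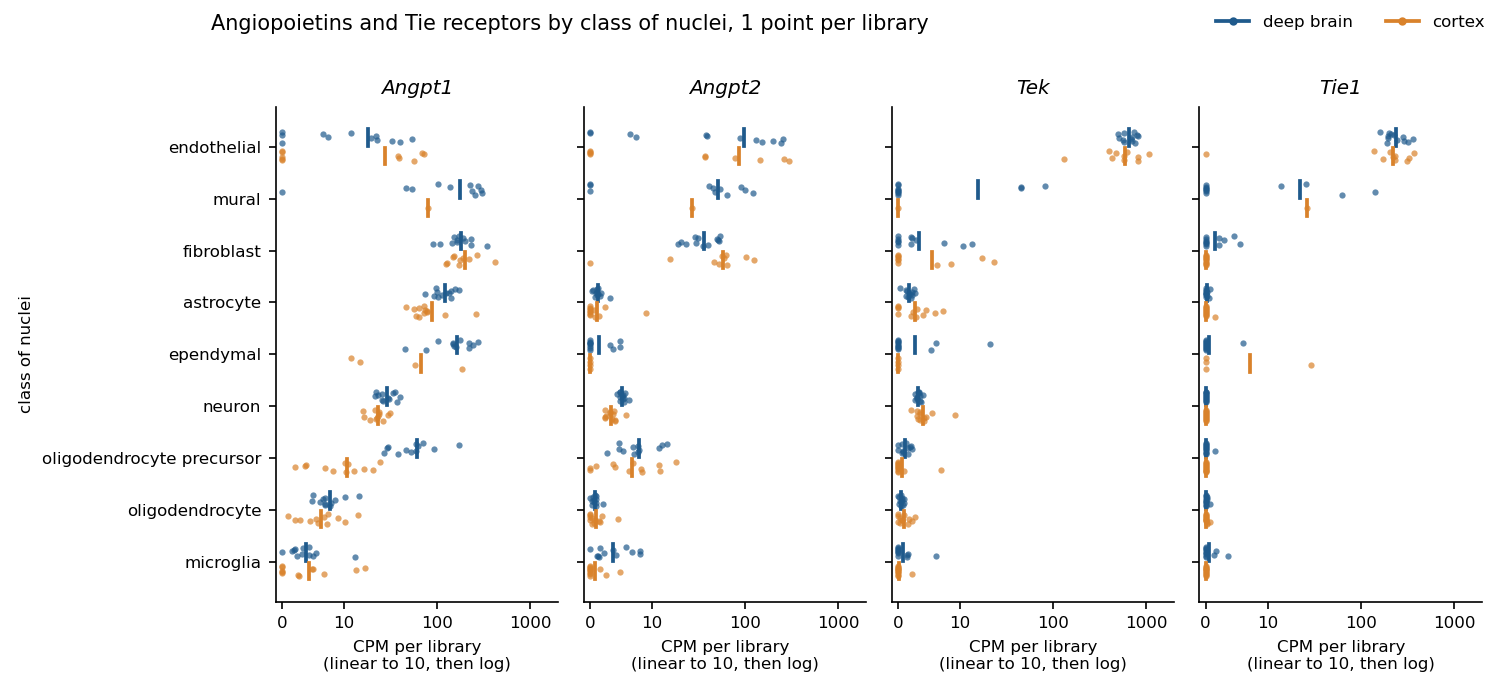
Levels of the 4 genes (CPM, linear up to 10 and logarithmic above) in 9 classes of nuclei, 1 point per library with at least 5 nuclei of the class and a vertical bar at the mean, in blue for deep brain and orange for cortex. Tek and Tie1 lie near 662 and 240 CPM in deep brain endothelial nuclei and at no more than 22.2 CPM on average in the other classes of the deep brain, while Angpt1 is spread over fibroblast, mural, ependymal and astrocyte nuclei.

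By count, endothelial nuclei of the deep brain held 1152 Tek and 436 Tie1 UMIs, and neurons 2280 and 27. The share of neurons with a Tie1 UMI, 0.0387%, was below that of microglia. The part of free RNA in the neuronal counts was not tested. Since neurons gave 73.7% of all deep brain UMIs, they gave 57.6% of the Tek UMIs in spite of the low level, while 29.1% came from endothelial nuclei, which were 0.53% of nuclei. For Tie1, 77.7% of deep brain UMIs came from endothelial nuclei.

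Angpt1 was highest in fibroblasts, mural nuclei, ependymal nuclei and astrocytes. Deep brain fibroblasts had 181 ± 66.1 CPM (n = 12), mural nuclei 175 ± 110 CPM (n = 11), ependymal nuclei, which line the ventricles, 163 ± 68.1 CPM (n = 12), and astrocytes, whose endfeet cover vessels, 120 ± 28.4 CPM (n = 12). These 4 neighbours overlapped within 1 SD. Next came oligodendrocyte precursors at 61.3 ± 39.7 CPM and neurons at 29.0 ± 6.16 CPM, and below them endothelial nuclei at 18.0 ± 17.2 CPM, oligodendrocytes at 7.67 ± 2.60 CPM and microglia at 3.90 ± 3.30 CPM. In the cortex the order began with fibroblasts at 198 ± 87.6 CPM (n = 10) and astrocytes at 86.9 ± 56.8 CPM (n = 12), and neurons were at 22.9 ± 4.66 CPM. By count, neurons gave 66.4% and astrocytes 13.8% of the deep brain Angpt1 UMIs. A UMI of Angpt1 was seen in 22.7% of deep brain astrocytes (21.9 to 23.5, median depth 3244) and in 0.812% of microglia.

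Angpt2 had its highest mean control levels in fibroblasts and mural nuclei. In control mice the deep brain level was 44.5 ± 11.3 CPM in fibroblasts, 38.8 ± 34.8 CPM in mural nuclei, 15.2 ± 18.4 CPM in endothelial nuclei, 9.72 ± 3.81 CPM in oligodendrocyte precursors and 5.04 ± 0.461 CPM in neurons (n = 6 each). Fibroblast and mural nuclei overlapped, and so did mural and endothelial nuclei. The endothelial level, from 12 UMIs, also overlapped those of precursors and neurons, so it did not stand above these classes. Microglia, which should lack the gene, were at 4.36 ± 3.11 CPM, which overlapped neurons, and astrocytes were at 1.01 ± 0.520 CPM. Neurons gave 77.0% of all deep brain Angpt2 UMIs (3573 of 4641), as they gave most UMIs of any kind.

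Levels of the 4 genes are given next by kind of nucleus within the vessel wall. Endothelial nuclei were sorted by which marker list gave the most UMIs. The lists were arterial (Bmx, Gkn3, Sema3g, Vegfc, Efnb2 and Fbln5), capillary (Mfsd2a, Slc16a1, Tfrc, Rgcc and Slc7a5) and venous (Slc38a5, Nr2f2, Vwf, Vcam1, Ackr1 and Icam1). Mural nuclei were sorted by pericyte (such as Kcnj8 and Abcc9) or smooth muscle markers (such as Acta2 and Myh11). Genotype differences in these markers were not examined, so a kind need not match between genotypes. The levels pool nuclei over mice and regions, so they are given with Poisson intervals and no test. In control mice Angpt1 was at 390 CPM (95% interval 247 to 585, 22 nuclei) in smooth muscle-type and at 79.2 CPM (47.7 to 124, 157 nuclei) in pericyte-type nuclei. In mutants the values were 141 CPM (38.4 to 361, 18 nuclei) and 160 CPM (76.5 to 294, 35 nuclei), with overlapping intervals. In endothelial nuclei of the mutants, Angpt1 was at 86.6 CPM (53.6 to 132) in arterial-type and 7.17 CPM (1.48 to 21.0) in capillary-type nuclei. In controls the values were 37.9 CPM (12.3 to 88.4) and 9.74 CPM (4.20 to 19.2), with overlapping intervals. Tek was at 837 CPM (726 to 960) in arterial-type nuclei of mutants and 530 CPM (413 to 670) in those of controls, at 652 and 696 CPM in capillary-type nuclei and at 518 and 582 CPM in venous-type nuclei. Tie1 was at 256, 313 and 288 CPM in arterial-, capillary- and venous-type nuclei of mutants and at 189, 237 and 146 CPM in those of controls. The venous-type intervals were 243 to 339 and 90.1 to 222. Such intervals carry no spread between mice, so whether they overlap does not test genotype.

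**Figure D2:**
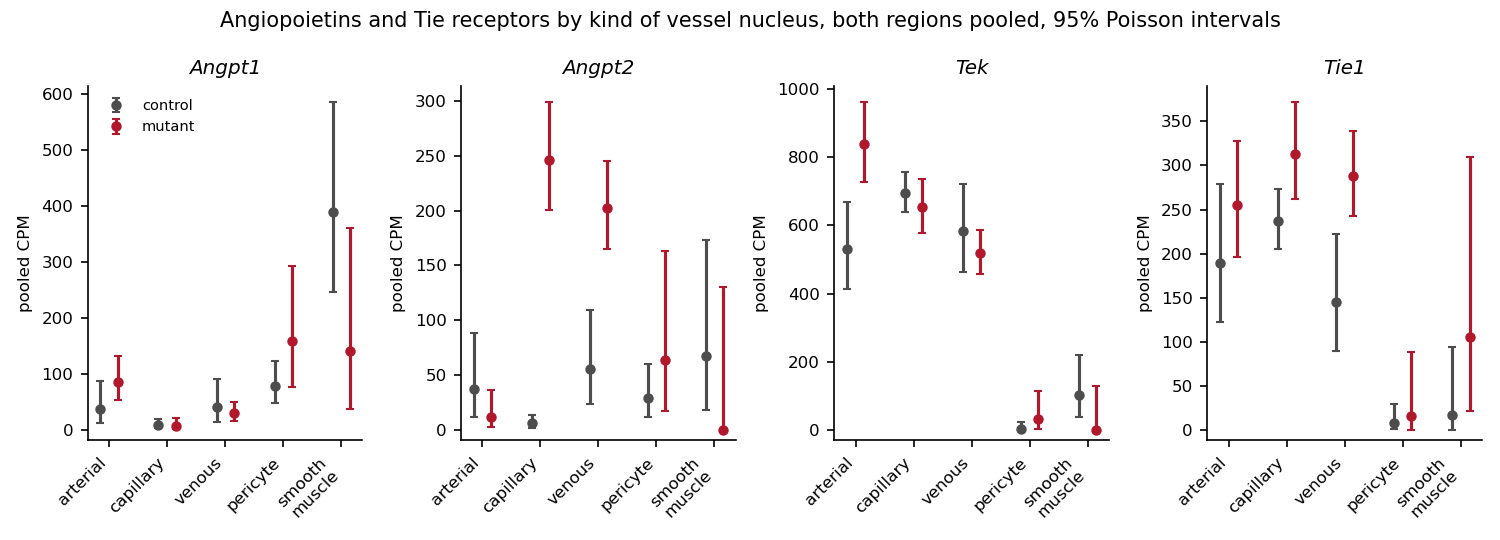
Pooled levels (CPM) of the 4 genes in arterial-, capillary- and venous-type endothelial nuclei and in pericyte- and smooth muscle-type mural nuclei, both regions pooled, grey for control and red for mutant, with 95% Poisson intervals. Angpt2 of the mutants stands at 246 CPM in capillary-type and 202 CPM in venous-type nuclei, against 6.08 and 55.4 CPM in controls.

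Angpt2 rose in endothelial nuclei of the mutant deep brain. The 6 mutants had 87.9 to 255 CPM (median 175) and the 6 controls 0 to 38.9 CPM (median 6.97), and 2 control libraries held no Angpt2 UMI in their endothelial nuclei. Every mutant lay above every control. The means were 178 ± 66.1 and 15.2 ± 18.4 CPM (SD, n = 6 each), and the difference was 3.53 ± 0.45 on the log2 scale (SE) with adjusted p = 0.000165 (edgeR's quasi-likelihood test on sums per library, Benjamini-Hochberg over 3605 genes). Of all genes tested 1.39% were called at an adjusted p under 0.05, and Angpt2 had the lowest p and the largest fold of the 3605. The controls held 12 Angpt2 UMIs and the gene was chosen with these levels known, so the ranks are a description. Angpt2 was the 1 called gene of the 3 members that could be tested, as Angpt1 was too low. An exact permutation test on log2(CPM + 10) gave p = 0.00216 (two-sided), the smallest that the splits into 6 and 6 allow. The fitted difference was 3.21 to 4.35 with any 1 library left out and 2.96 to 3.66 under the other 8 settings, and it was called under each. Angpt2 passed the filter on low counts through the mutants, and was also called with no filter.

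Angpt2 UMIs were unevenly spread over the endothelial nuclei. In the mutants 47 of 317 deep brain endothelial nuclei had at least 1 (14.8%, 95% exact interval 11.1 to 19.2), and in the controls 5 of 345 (1.45%, 0.472 to 3.35), at median depths of 2102 and 1799 UMIs. The 6 mutants had 3 to 14 such nuclei each. A single nucleus held 15 of the 23 Angpt2 UMIs of mutant 5 and 11 of the 14 of mutant 6, so the levels of these 2 mice rest mostly on 1 nucleus each. Thinned to 1000 UMIs per nucleus, the shares were 8.73% of 275 and 0.707% of 283 nuclei, with 104 shallower nuclei left out. Microglia, which should lack the gene, had a share of 0.783%, or 0.147% when thinned in the same way. By kind, Angpt2 was at 246 CPM (201 to 299) in capillary-type, 202 CPM (165 to 246) in venous-type and 12.4 CPM (2.55 to 36.1) in arterial-type nuclei of mutants, and at 6.08 CPM (1.98 to 14.2), 55.4 CPM (23.9 to 109) and 37.9 CPM (12.3 to 88.4) in those of controls. The kinds were unevenly filled, with 129 capillary-, 110 venous- and 91 arterial-type nuclei in mutants and 260, 55 and 41 in controls. These pooled levels carry no spread between mice and were not tested. Among deep brain endothelial nuclei with Angpt2, 37 of 52 also held Tek and 33 held Tie1, against 423 and 248 of all 662, at median depths of 3268 and 1916 UMIs. The part of depth in these shares was not tested.

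Other quantities of the same libraries are set beside this result. The summed level of 13 mural markers in deep brain endothelial nuclei was 235 to 1821 CPM in mutants and 1119 to 4208 CPM in controls, and with nuclei that held other classes' markers left out Angpt2 was called, at a log2 difference of 3.47. Fibroblast markers were at 26.8 to 543 CPM in mutants and 76.3 to 521 CPM in controls. Mcph1, the gene on the other strand around Angpt2, was at 57.3 ± 16.3 CPM in mutants and 30.8 ± 9.57 CPM in controls, and its part in the Angpt2 counts was not tested. Fibroblasts, by contrast with endothelium, had 27.9 ± 8.42 CPM of Angpt2 in mutants (19.1 to 39.9) and 44.5 ± 11.3 CPM in controls (29.1 to 54.2), which overlapped and were not tested.

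In the cortex the levels of Angpt2 in endothelial nuclei were of the same order. Mutants with at least 5 endothelial nuclei had 77.4, 260, 144 and 299 CPM, and the controls had 0, 0, 0, 0, 37.4 and 37.1 CPM. The groups did not overlap, but the counts were small. The 4 mutants had 4, 6, 13 and 37 Angpt2 UMIs, and the 4 controls at 0 held 5 to 12 nuclei and 13893 to 58704 UMIs. The 2 mutants with 4 nuclei each, left out of the fit, had 223 and 139 CPM. The gene did not pass the filter on low counts in 4 mutant and 6 control libraries, where 1.23% of 1216 genes were called. The 13 mural markers summed to 0 to 437 CPM in these mutants (median 167) and 72.0 to 5761 CPM in the controls (median 3080), and their part in the result was not tested. With no filter the log2 difference was 3.36 with adjusted p = 0.000174 (edgeR). The exact permutation test gave p = 0.00952 over 210 splits of these 10 libraries and p = 0.00216, the smallest possible, over all 12. With a replicate block, and with at least 10 nuclei per library, it was not called (adjusted p = 0.0865 and 0.144, edgeR), at log2 differences of 2.76 and 2.77. With mice matched by age as the block it was also not called (3.14, adjusted p = 0.0981, edgeR). The genotype difference in the deep brain less that in the cortex was 0.17 ± 0.87 on the log2 scale (adjusted p = 1.00 in edgeR, where no gene of 3813 was called, 0%). This fit took the 2 regions of a mouse as independent, and with the mouse as a block the term was −0.24.

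**Figure D3:**
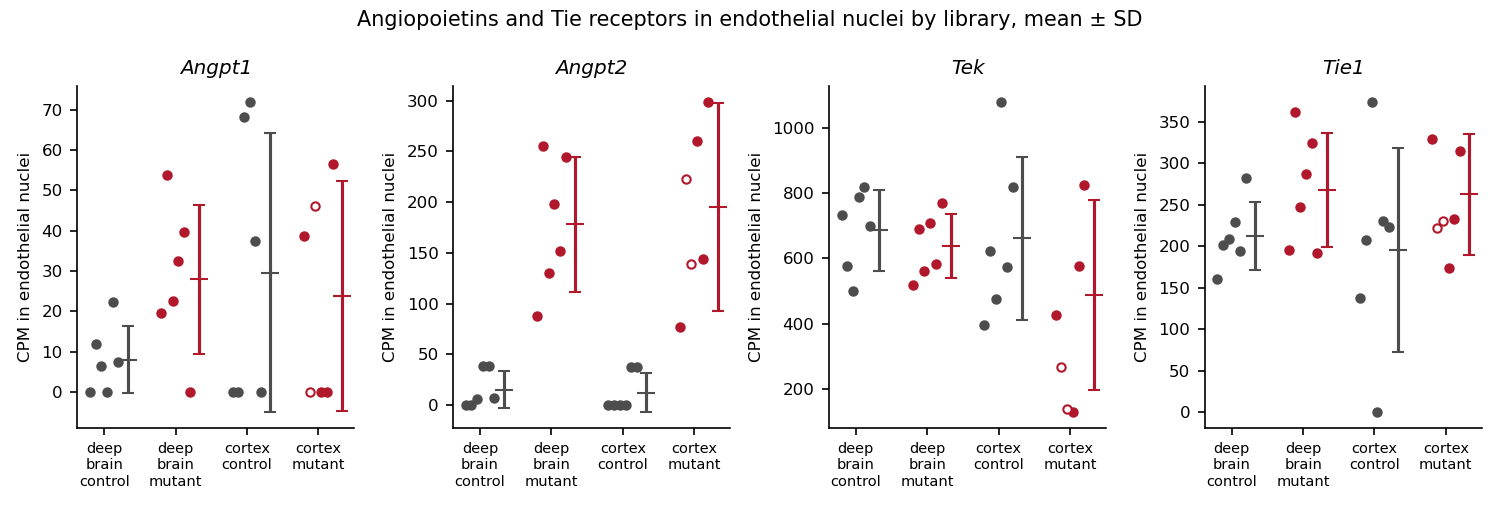
Levels of the 4 genes in endothelial nuclei (CPM, linear axes), 1 point per library with the mean and SD beside each group, grey for control and red for mutant; open points are libraries with under 5 endothelial nuclei, left out of the mean. The Angpt2 panel shows mutants at 77.4 CPM or above in both regions and controls at 38.9 CPM or below, while Tek and Tie1 overlap between genotypes.

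Neither receptor differed between genotypes by the test. Tek in deep brain endothelial nuclei was at 518 to 769 CPM in mutants (median 637) and 502 to 818 CPM in controls (median 716), and the groups overlapped over nearly their whole range. The difference was −0.10 ± 0.17 on the log2 scale (adjusted p = 0.91, edgeR). Tie1 was at 192 to 362 CPM in mutants (median 267) and 160 to 282 CPM in controls (median 205), a difference of 0.38 ± 0.19 (adjusted p = 0.52). In the cortex the differences were −0.38 ± 0.42 for Tek and 0.27 ± 0.43 for Tie1 (adjusted p = 0.77 and 0.82). A Tek UMI was seen in 65.9% (60.4 to 71.1) of deep brain endothelial nuclei of mutants and 62.0% (56.7 to 67.2) of those of controls. Between the regions of control mice the differences, deep brain over cortex, were 0.07 ± 0.25 for Tek and −0.11 ± 0.31 for Tie1, where 0% of 2253 genes were called by edgeR, 165 genes had an unadjusted p under 0.05 and DESeq2 called 33. Angpt1 in deep brain endothelial nuclei, too low for the fit, was at 0 to 53.7 CPM in mutants (median 27.4) and 0 to 22.3 CPM in controls (median 6.97). The exact permutation test gave p = 0.0628 for it, and the groups overlapped. With no filter on low counts its difference was 1.66 ± 0.60 (adjusted p = 0.28, edgeR), and with classes from marker UMIs alone it was −0.48 ± 0.33 (adjusted p = 0.66). Marker UMIs alone made a larger endothelial class, 1.35% of deep brain nuclei in mutants and 1.85% in controls. The main classes held 0.493% and 0.564%. An Angpt1 UMI was seen in 16 of 317 mutant nuclei (5.05%, 2.91 to 8.07) and 5 of 345 control nuclei (1.45%, 0.472 to 3.35).

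**Figure D4:**
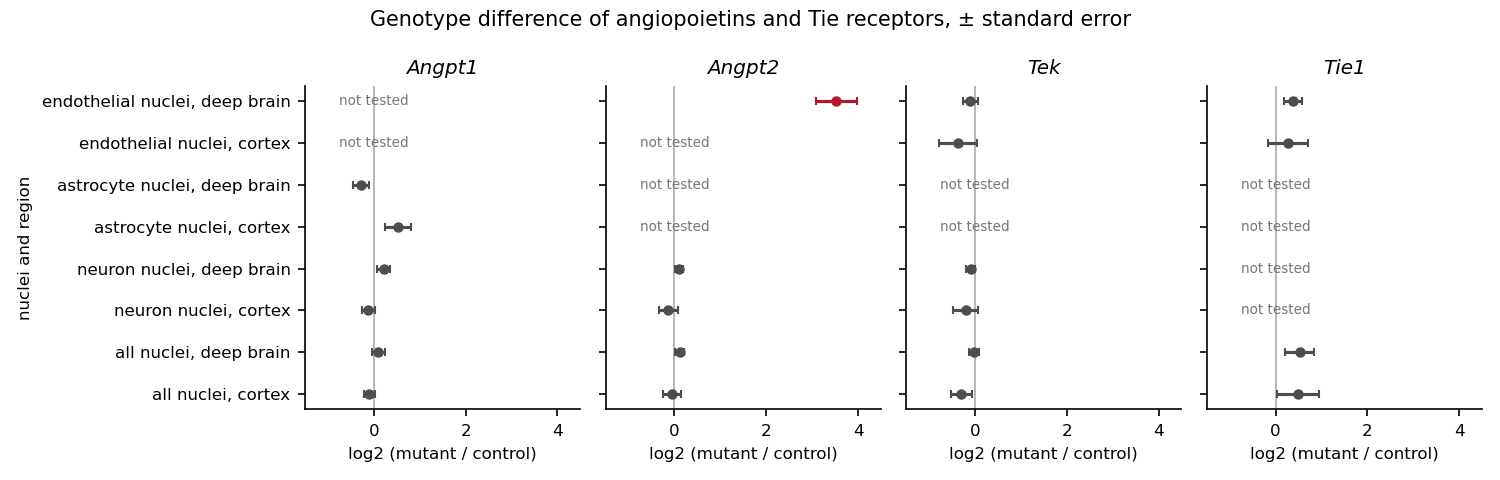
Differences of the 4 genes between mutant and control, as log2 fold changes with standard errors from edgeR, by class of nuclei and region; red marks an adjusted p under 0.05, and classes where a gene did not pass the filter on low counts are marked as not tested. Angpt2 in deep brain endothelial nuclei stands at 3.53 ± 0.45 and the other differences lie between −0.38 and 0.53.

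Mural nuclei, which overlapped fibroblasts, ependymal nuclei and astrocytes in Angpt1 level, were fewer in the mutants. They made up 0.0812 ± 0.0288% of deep brain nuclei in mutants and 0.254 ± 0.0637% in controls (n = 6 each, exact permutation p = 0.00216, the smallest possible). With classes set from marker UMIs alone the difference was not past the threshold (exact permutation p = 0.115). That setting made a far larger mural class, 2.90% of deep brain nuclei in mutants and 3.43% in controls. It is therefore not a re-test of the same nuclei. Endothelial nuclei were at 0.493 ± 0.194% and 0.564 ± 0.123% (exact permutation p = 0.498). In the remaining mural nuclei, Angpt1 was at 297, 234, 0, 302 and 253 CPM in mutants 1 to 5 and at 45.6 to 276 CPM (median 120) in the 6 controls. Mutant 3, with no UMI in 12 nuclei, lay below all controls and the other 4 lay above the control median. Over both regions, mutant mural nuclei held 10 Angpt1 UMIs in 35 pericyte-type, 4 in 18 smooth muscle-type and 3 in 2 unsorted nuclei. Control nuclei held 19 in 157 pericyte-type and 23 in 22 smooth muscle-type nuclei, at pooled levels of 79.2 and 390 CPM. The kind that was much rarer in mutants was thus the one with the lower control level. The mutant levels thus rest on few UMIs each. No member passed the filter on low counts in the mural fit, where 2.48% of 242 genes were called, and the exact permutation test gave p = 0.890 for Angpt1 and 0.422 for Angpt2. Mutant 6 had 4 mural nuclei and was left out. In the cortex no mutant library had 5 mural nuclei. Only control 5 had them there, with 80.0 CPM of Angpt1, so the main fit between regions rests on 1 cortex library and is not given.

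Astrocytes of the deep brain held more Angpt1 than those of the cortex in control mice. The 6 deep brain libraries had 96.5 to 170 CPM (median 133) and the 6 cortex libraries 46.6 to 77.2 CPM (median 67.7), with no overlap. The difference was 0.96 ± 0.17 on the log2 scale (adjusted p = 0.000623, edgeR), in a comparison where 11.0% of 11773 genes were called, and 0.91 with the mouse as a block. It was 0.84 to 1.10 with any 1 mouse left out. Under the other settings it was 0.36 to 1.96, the highest with classes from marker UMIs alone. By cluster, in the deep brain, controls had 148 ± 26.7 CPM in a cluster led by Slc6a11, a GABA transporter, and 82.5 ± 44.2 CPM in a cluster led by Slco1c1 and Slc1a3. The main cortical cluster, led by Slc1a3 and Slco1c1, had 64.1 ± 15.1 CPM, and the regions were clustered separately. Without the Slc6a11 cluster of the deep brain the regional difference was 0.36 ± 0.28 (adjusted p = 0.77) and was not called. This setting was chosen after the levels by cluster had been seen, and it removed nuclei of the deep brain alone.

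Between genotypes Angpt1 of astrocytes was not called in either region. Deep brain mutants had 74.5 to 141 CPM (median 107) and controls 96.5 to 170 CPM, a difference of −0.28 ± 0.16 (adjusted p = 0.39, edgeR, 5.21% of genes called). Cortex mutants had 58.7 to 257 CPM (median 74.9), where the highest came from 26 nuclei of mutant 3, and the difference was 0.52 ± 0.28 (adjusted p = 0.51, 1.84% called). The deep brain difference less the cortex difference was −0.75 ± 0.34 (adjusted p = 0.96, edgeR, 0.00811% called). Endothelial markers in astrocytes were at 229 to 467 CPM in deep brain mutants and 358 to 723 CPM in controls, summed over 10 genes. These include Slco1c1, a leading gene of astrocyte clusters above, so the sum does not measure endothelial RNA alone. Angpt2, Tek and Tie1 were at or under 9.01 CPM in every astrocyte library.

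**Figure D5:**
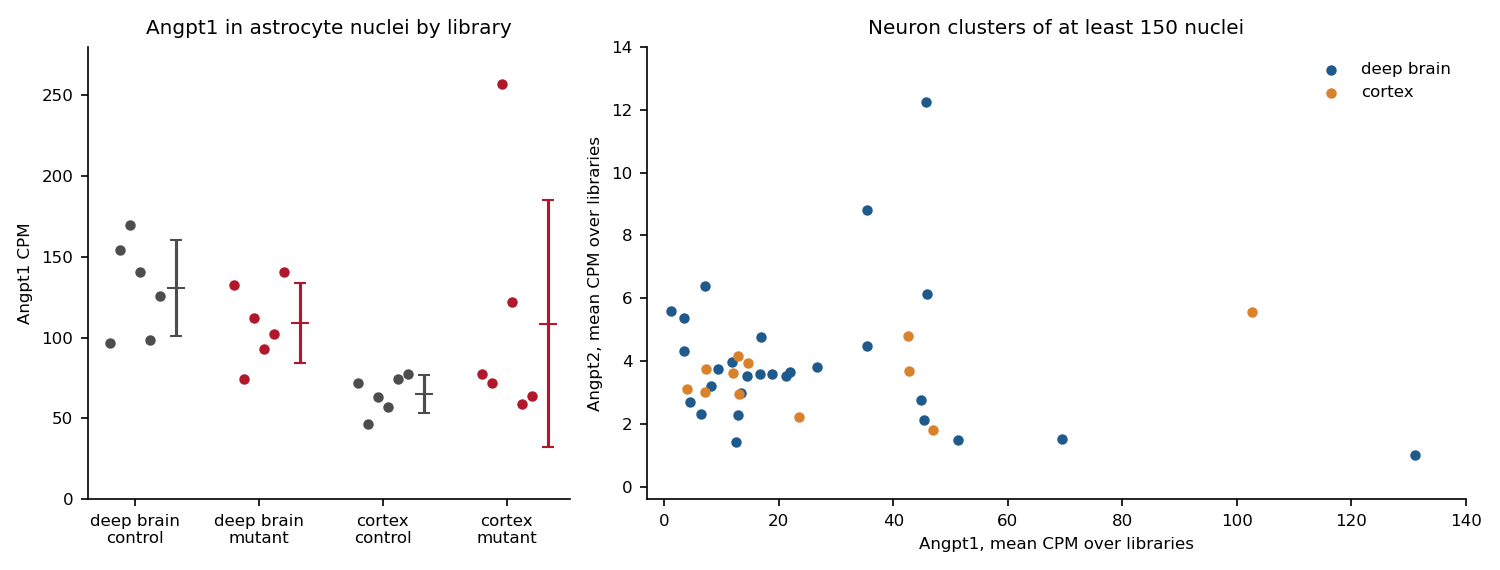
Left, Angpt1 in astrocyte nuclei (CPM) by library with the mean and SD of each group, grey for control and red for mutant. Right, mean Angpt1 against mean Angpt2 over libraries for neuron clusters of at least 150 nuclei, plotted as 28 deep brain (blue) and 12 cortex (orange) points. Deep brain controls lie at 96.5 to 170 CPM and cortex controls at 46.6 to 77.2 CPM, and the clusters highest in Angpt1 are not those highest in Angpt2.

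In neurons the 2 ligands were concentrated in different clusters. Angpt1 reached 103 ± 48.7 CPM (n = 11 libraries, 270 nuclei) in a cortical cluster led by Col11a1, Col24a1, Nr4a2 and Ntng2, and 110 ± 63.7 CPM (n = 7, 122 nuclei) in a deep brain cluster that shared the leading genes Nr4a2, Ntng2 and Col24a1. Granule-like clusters led by Gabra6 and Fat2 had 131 ± 68.7 CPM (n = 5) and 69.4 ± 56.3 CPM (n = 4). Angpt2 reached 12.2 ± 2.38 CPM (n = 12 libraries, 5624 nuclei) in a deep brain cluster led by Plekhg1, Synpo2, Prkcd, Lef1 and Tcf7l2, against 5.20 ± 0.505 CPM in all deep brain neurons. In that cluster mutants had 13.3 ± 2.95 and controls 11.2 ± 1.03 CPM. Tek reached at most 5.94 ± 6.86 CPM in any cluster of at least 150 nuclei, with an SD above the mean.

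No member was called in neurons between genotypes. In the deep brain the log2 differences were 0.21 ± 0.14 for Angpt1, 0.09 ± 0.09 for Angpt2 and −0.10 ± 0.10 for Tek (adjusted p = 0.59, 0.75 and 0.77, edgeR, 0.278% of genes called). Angpt1 ran from 25.4 to 39.6 CPM in mutants and 21.2 to 35.4 CPM in controls. Without the granule-like clusters, which were unevenly present, the 3 genes were also not called. In the cortex they were −0.12 ± 0.14, −0.13 ± 0.20 and −0.21 ± 0.27 (adjusted p = 0.87, 0.90 and 0.89, 0.00606% called). Between the regions of control mice, where 36.4% of 19349 genes were called, Angpt1 differed by 0.02 ± 0.16, Angpt2 by 0.32 ± 0.15 and Tek by −0.51 ± 0.26 (adjusted p = 0.92, 0.12 and 0.14), and the interaction of region with genotype called none of the 3 (0.157% of genes called). Tie1 was too low in neurons to test.

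Over all nuclei of a library the family did not differ between genotypes by the test. Whole deep brain libraries had 4.30 to 5.92 CPM of Angpt2 in mutants and 4.38 to 5.20 CPM in controls, a difference of 0.11 ± 0.09 (adjusted p = 0.65, edgeR, 1.54% of genes called). Endothelial nuclei, where Angpt2 rose, gave 3.75% of its deep brain UMIs. Tie1 was at 0.317 to 1.05 CPM in mutants and 0.282 to 0.664 CPM in controls, a difference of 0.53 ± 0.32 (adjusted p = 0.51). In the cortex 0.275% of genes and none of the 4 members were called. With the mouse number as a block, 473 genes in place of 50 and again none of the members were called there.

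Among partners of the pathway, Ptprb, which encodes the phosphatase VE-PTP that removes phosphate from Tie2, was at 2423 to 3705 CPM in endothelial nuclei of deep brain mutants (median 3286) and 1636 to 2952 CPM in controls (median 2180). The ranges overlapped, and the difference was 0.56 ± 0.16 (adjusted p = 0.094, edgeR). In the cortex it was 1.04 ± 0.33 (adjusted p = 0.20). Foxo1, a transcription factor restrained by Tie2 signalling through Akt, was at 190 to 384 CPM in deep brain mutants and 152 to 242 CPM in controls, with differences of 0.32 ± 0.19 in the deep brain and 1.06 ± 0.45 in the cortex (adjusted p = 0.64 and 0.33). Angpt4, the remaining ligand of the family, had no UMI in the 662 deep brain endothelial nuclei, which allows a share of up to 0.453% of nuclei with a UMI at this depth. Svep1, a matrix protein that binds Tie1, was at 112 ± 32.9 CPM in deep brain fibroblasts and 276 ± 65.2 CPM in those of the cortex, and at 3.73 ± 4.29 CPM in deep brain endothelial nuclei.

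By list, in deep brain endothelial nuclei none of the 3 tested of 6 ligand and receptor partners, none of the 11 tested of 17 signal carriers and none of the 7 transcription factors was called, with medians of 0.19, −0.18 and −0.02 on the log2 scale against 0.00 over all genes. Of all genes 1.39% were called there, so at these list sizes a count of 0 is near the background. Of 14 genes known from endothelial tip cells 6 were tested and 1 rose, Nrp2, a co-receptor for VEGF and semaphorins, by 1.29 ± 0.19 (adjusted p = 0.000458, edgeR). Nrp2 also rose in the cortex, by 2.03 ± 0.38 (adjusted p = 0.0131), as 1 of 3 tested, where 1.23% of all genes were called. The tip cell receptor genes Kdr and Nrp1 were at 0.38 ± 0.19 and 0.28 ± 0.22 in the deep brain (adjusted p = 0.49 and 0.74).

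Genes whose levels were most like those of each member were taken over 19 profiles of the control mice, each a class in a region, as Pearson correlations of log2(CPM + 10) over 14233 genes. Classes of a library share its depth, so these are descriptions. Endothelial nuclei entered as a single profile in each region, so genes high only there correlate highly with each other. Cldn5 was also among the markers that named the endothelial class. Tek was most like Cldn5 (r = 0.995), Dll4, Slc19a3, Sox18 and Ly6c1. Tie1 was most like Ushbp1 (0.999), Fendrr, Sox17, Slc19a3 and Myct1, and Tek and Tie1 correlated with each other at 0.990. Angpt2 was most like Calhm5 (0.946), Tbx18, C1qtnf7, Anpep and Slc16a12, of which 4 were highest in fibroblasts and Anpep in mural nuclei. Angpt1 was most like Ikbke (0.901), Per3, Fzd10os, Slc22a4 and Fgfr1, and its correlation with Angpt2 was 0.550 and with Tek −0.04.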

How the data were processed

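Nuclei of 24 libraries (10x 5′ gene expression) were sequenced, and the authors deposited raw UMI counts per gene and barcode. Their processing notes name Cell Ranger 5.0.1 and bcl2fastq 2.20.0.422 with the mm10 genome, and introns were counted. Cell Ranger counts reads in the sense direction. From these counts, barcodes with over 500 and under 7000 genes and under 20% mitochondrial UMIs were kept. Nuclei were clustered by region (20 principal components of 2000 genes, Seurat 5.3.0) and named from marker lists. The naming rules were revised after the clusters had been seen. No doublet caller was run, and clusters holding markers of 2 classes or with a median under 1000 UMIs were left unnamed, so doublets may remain.

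Counts were summed per library and class where a library held at least 5 nuclei, and tested with edgeR 4.0.16 (quasi-likelihood, TMM, filterByExpr, Benjamini-Hochberg over all genes tested, threshold 0.05), without a replicate block. Two-sided exact permutation tests used log2(CPM + 10). Classes were not tested against each other. The fits were tested on simulated data. Alternatives were DESeq2 1.42.0, other size factors, no low-count filter, blocks, other nucleus limits, classes from marker UMIs alone and leaving out each library. Leaving out the granule-like or Slc6a11 clusters or each control mouse in the regional astrocyte comparison, and removing both limits or permuting all 12 libraries in the cortical endothelial comparison, were added after seeing the data. The 4 members and all lists were chosen with earlier results of these data known. Genes named were the members, Ptprb, Angpt4, Svep1 and Foxo1, genes of the pathway lists past the threshold in endothelial or mural nuclei, and the 5 genes most like each member. Mcph1, Kdr, Nrp1 and marker genes were named outside that rule after their values were seen. The labels give each sample as a mouse and region, so a mouse number links its 2 regions. Between genotypes, same-numbered mice had correlated deviations from their group means over 0.1 in all 6 pairs over all cortex nuclei alone. By the labels, mice 1 to 4 had the same age in both genotypes, and the ages of mice 5 and 6 were crossed. The main genotype fits left this matching out, and blocks by number and by age were among the alternatives.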

Additional observations from a re-analysis of the deposited data

Results flagged for a closer look

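In 10 of 70 groups of libraries, for 1 member in 1 class, the highest or lowest library stood apart from the rest by Dixon's 95% limit. Chance passes it in about 1 group in 20 where values are normally spread. Levels that rest on 1 to 3 UMIs, as in several groups below, need not follow that rate. For Angpt1, astrocytes of cortex mutant 3 had 257 CPM against 58.7 to 122 in the other mutants, from 26 nuclei and 51 UMIs, and mural nuclei of deep brain mutant 3 had 0 CPM against 234 to 302, from 12 nuclei. For Angpt2, astrocytes had 9.01 CPM in cortex mutant 2 (3 UMIs in 38 nuclei, others 0 to 1.43), 3.26 CPM in deep brain mutant 6 (others 0.841 to 1.57) and 2.45 CPM in cortex control 2 (1 UMI, others 0 to 0.659). Over all nuclei, cortex control 6 had 5.64 CPM of Angpt2 (others 2.54 to 3.68) and 9.14 CPM of Tek (others 3.30 to 5.13). For Tie1, astrocytes of cortex mutant 6 had 1.48 CPM from 2 UMIs, and neurons of cortex mutant 1 and cortex control 1 had 0.0475 and 0.0665 CPM from 1 UMI each. None of the values of Angpt2, Tek or Tie1 in endothelial nuclei stood apart in this way.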

How the results depend on the processing

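Angpt2 in deep brain endothelial nuclei was called under every alternative run. In cortical endothelial nuclei 0 members were called, but 1, Angpt2, was called with no low-count filter and 1 with neither filter nor nucleus limit. Of all genes, 15 of 1216 were called in the main fit there and 14 to 76 under the settings that kept all libraries or set other limits. With classes from marker UMIs alone, 1 member was called between regions in control endothelial nuclei and 2 in mural nuclei. The alternative settings called up to 502 and 3764 genes in all in these comparisons. With classes from marker UMIs alone the mural share differed by -0.529 (deep brain) and -0.602 percentage points (cortex), past no threshold. These classes were far larger, with a mural share of 3.43% in deep brain controls against 0.254% in the main setting. The cortical mural share without 1 library differed by -0.0590 to -0.0175, and was not past the threshold without control 5 or mutant 1, 2, 3, 4 or 6. Without the Slc6a11 cluster 0 members were called between regions in astrocytes, and Angpt1 between genotypes was 0.0197. The alternative settings called 73 to 3981 genes in all between regions in control astrocytes, against 1293 in the main fit.

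Differences that were not called turned direction as follows (log2). With marker UMIs alone: Angpt1 in deep brain endothelial nuclei -0.48 (1.66 with no filter), Tek in endothelial nuclei 0.28 (deep brain) and 0.45 (cortex), Angpt2 in deep brain neurons -0.0693, Angpt1 in neurons between regions -0.28, Tie1 in endothelial nuclei between regions 0.64, and the region by genotype terms of Tek -0.17 and Tie1 -0.17. With at least 10 nuclei: Tek in cortical endothelial nuclei 0.30, Tie1 between regions 0.0760, and the terms of Tek -0.43 and Tie1 -0.20. With no filter: Tie1 between regions 0.15 and the term of Tek -0.0333, which was -0.12 with other classes' markers left out. With depth as a covariate Angpt2 in all cortex nuclei was 0.0095. Without 1 library: Tek in all deep brain nuclei -0.0682 to 0.0554, in cortical neurons -0.34 to 0.12, and Angpt2 in cortical neurons -0.23 to 0.0350 and in all cortex nuclei -0.15 to 0.11. The causes were not tested.

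With the replicate block, Tie1 in control endothelial nuclei between regions was 0.0232, and the region by genotype terms of Angpt2 and Tie1 were -0.24 and -0.18. Same-numbered mice of the genotypes had correlations over 0.1 in every pair only over all cortex nuclei (0.103 to 0.615), and in cortex neurons 4 of 6 pairs did. Counts of genes called moved without 1 library, in the deep brain from 50 to between 28 and 101 (endothelial), 6 to between 0 and 15 (mural), 660 to between 384 and 1074 (astrocytes), 55 to between 4 and 182 (neurons) and 324 to between 92 and 450 (all nuclei), and in the cortex from 15 to between 4 and 23 (endothelial), 128 to between 95 and 216 (astrocytes) and 50 to between 11 and 110 (all nuclei). Other settings gave up to 518 in deep brain neurons and 960 in all deep brain nuclei (both DESeq2), and up to 473 in all cortex nuclei (replicate block). They gave 186 to 934 in deep brain and 0 to 296 in cortical astrocytes, and up to 15 in cortical neurons. Deep brain mural nuclei had 0 to 23, and deep brain and cortical endothelial nuclei up to 150 and 76. Between regions in controls they gave 0 to 502 in endothelial nuclei, against 0, and 73 to 3981 in astrocytes, against 1293. Neurons had 4193 to 8157 between regions, against 7049, and mural nuclei up to 3764. The region by genotype term gave up to 27 in endothelial nuclei, against 0, up to 16 in astrocytes, against 1, and 13 to 223 in neurons, against 32.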
